A study of Mus musculus with 2 samples.

Results

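Short dense runs are 9 stretches of mouse chromosomes 2, 4, 6, 7 and 11, 13.59 to 33.49 kb long, in which DNase-seq peaks of cultured adipocytes followed each other at short steps. They were selected on the measured peaks, as clusters of at least 20 peaks found in both libraries that were no more than 10 kb apart and reached at least 10 per 10 kb, outside chromosome 10. The runs span 207.35 kb and hold 338 of the 133695 peaks of replicate 1 and 383 of the 216556 peaks of replicate 2, with 187 of 117685 and 144 of 185029 hotspots. A shared peak is a merged interval that holds a peak of each replicate with an overlap of at least 1 bp, and 273 of the 117590 shared peaks lay in the runs. The 50 kb on each side of every run served as its flanks, 792.48 kb in all once the bases of other runs were left out. The crowding of peaks in the runs, and the share of them found in both libraries, thus describe how the runs were chosen.

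DNase I was used to map open chromatin in adipocytes made in culture from 3T3-L1, a mouse preadipocyte line, at day 8 of differentiation. The 2 libraries are biological replicates 1 and 2 of this 1 group, with no undifferentiated or treated control analysed here, so nothing below compares conditions. Both carry the strain label C57BL/6J and the same donor record, although 3T3-L1 is generally described as coming from Swiss mice, and each combines more than 1 technical replicate. No label says whether the 2 cultures were grown apart, so the difference between the libraries may be technical. Both libraries had a promoter peak at 9 of 9 adipocyte marker genes, among them Pparg, Adipoq and Plin1, and at 2 of 3 preadipocyte or fibroblast genes, Dlk1 being the gene without one. Neither had one at any of 10 marker genes of liver, muscle, blood, endothelium, neurons or pluripotent cells. Sequencing depth was unknown.

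DNase I cuts DNA where nucleosomes are loose or displaced, which happens at promoters and enhancers bound by transcription factors. A peak marks 1 such narrow site, and a hotspot is the wider region of raised cutting around it. Most active genes are served by separate sites with closed chromatin in between, while genes that define a cell type often lie in longer domains of clustered enhancers.

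The strongest shared peaks show what lies under the runs. Each sequence below is the plus strand of the GRCm38 (mm10) reference over 150 bp, the width of 1 deposited peak, with the CG dinucleotides in capitals. They come from the peaks with the highest replicate 1 value in their runs, except that the Mdh1 sequence is the next strongest that touches no untranslated region. The first, chr2:77870216-77870365 at the low edge of run A of the Cwc22 block, held no CG.

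Cwc22 block A: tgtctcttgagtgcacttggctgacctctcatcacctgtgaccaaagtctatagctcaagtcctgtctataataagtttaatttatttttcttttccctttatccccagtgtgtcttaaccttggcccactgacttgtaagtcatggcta

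Cwc22 block B, chr2:77993076-77993225: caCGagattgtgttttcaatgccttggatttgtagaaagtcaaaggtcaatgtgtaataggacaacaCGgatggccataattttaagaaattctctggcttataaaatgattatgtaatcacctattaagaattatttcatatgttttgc

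Cwc22 block C, chr2:78022056-78022205: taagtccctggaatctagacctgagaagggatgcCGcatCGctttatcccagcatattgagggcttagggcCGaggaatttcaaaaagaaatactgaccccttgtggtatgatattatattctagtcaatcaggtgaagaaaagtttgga

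Meis2, chr2:116067216-116067365: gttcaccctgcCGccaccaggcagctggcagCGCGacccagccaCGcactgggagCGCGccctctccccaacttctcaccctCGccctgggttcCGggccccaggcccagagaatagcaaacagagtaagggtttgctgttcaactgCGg

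Ywhab, chr2:164009356-164009505: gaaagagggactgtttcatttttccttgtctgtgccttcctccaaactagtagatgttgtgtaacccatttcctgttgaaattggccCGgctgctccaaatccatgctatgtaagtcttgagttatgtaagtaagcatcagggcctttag

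Mdh1, chr11:21561396-21561545: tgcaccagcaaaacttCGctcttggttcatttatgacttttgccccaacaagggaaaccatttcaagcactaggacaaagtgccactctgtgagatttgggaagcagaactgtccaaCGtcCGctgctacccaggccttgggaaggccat

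These 6 sites differ in base composition and in strength. The Meis2 site, in an exon of the noncoding genes 2700033N17Rik and G630016G05Rik, held 9 CG in 150 bp at a GC content of 66%, while the run B site held 2 CG at 32%. The peak of run B had values of 145 in replicate 1 and 150 in replicate 2, and that of Ywhab had 72 and 114. None of the 6 sequences contained a match to the transcription factor motifs searched below. Peak values are the authors' own, are whole numbers from 1 to 150 on a scale that is not given, and were used only as percentiles, the rank of a peak among all peaks of its library.

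The runs stood out from their flanks in number of sites, as their selection requires. Shared peaks numbered 13.2 per 10 kb in the runs, 1.15 in the flanks and 0.431 over all chromosomes, ratios of 11.5 and 30.5. Replicate 1 had 16.3 peaks per 10 kb in the runs and 1.32 in the flanks, and replicate 2 had 18.5 and 3.52. The ratio of runs to flanks was therefore 12.3 in replicate 1 and 5.25 in replicate 2, and 9.24 in replicate 2 without the 3 runs of the Cwc22 block, whose flanks are described below. With flanks of 25 kb the ratio of shared peaks was 18.0, and with hotspots counted in place of peaks it was 4.43. The map of all peaks and hotspots shows the runs beside their thinner surroundings, with the Cwc22 block as the exception in replicate 2.

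**Figure D1:**
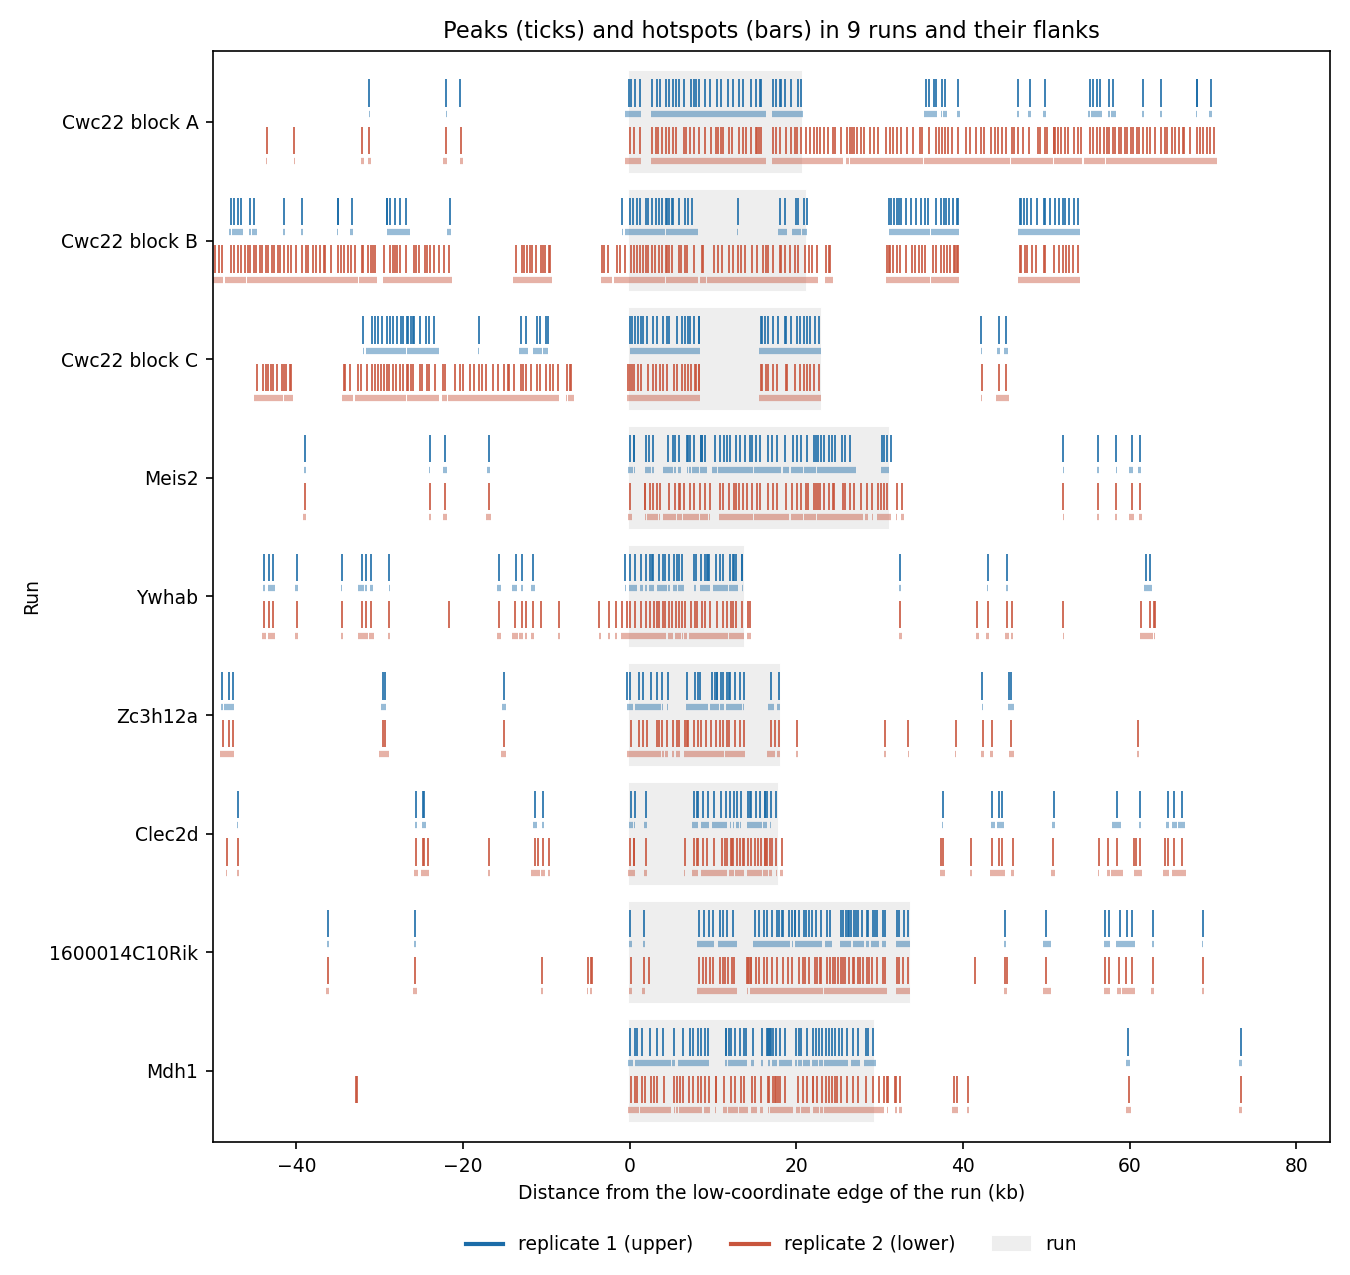
Peaks (ticks) and hotspots (bars) of replicate 1 (blue, upper) and replicate 2 (red, lower) in each run (grey) and its flanks, with distance in kb from the low-coordinate edge of the run on the x axis. At the 14 edges other than the 4 inner ones of the Cwc22 block, 20 replicate 2 peaks and 4 replicate 1 peaks lie within 5 kb outside, while between runs A and B replicate 2 goes on with dense peaks where replicate 1 has few.

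Within the runs the sites were spaced alike in both libraries. The median distance between the centres of neighbouring peaks was 460 bp in replicate 1 and 460 bp in replicate 2, with 90.9% and 93.6% of steps under 1 kb. Over all chromosomes, neighbouring peaks within 10 kb of each other stood at medians of 1220 and 1160 bp. Hotspots covered 65.9% of the run length in replicate 1 and 78.9% in replicate 2, and the bases under hotspots of both came to 64.4%, beside 5.05% of the flanks and 1.61% of the genome. Bases under peaks of both libraries made up 14.8% of the run length, against 23.8% for replicate 1 alone and 27.0% for replicate 2 alone. With only the stronger 50% of each list the figure for both was 9.49%.

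Most run peaks of one library had a counterpart in the other, but not at exactly the same place. In replicate 1, 293 of 338 run peaks (86.7%) overlapped a replicate 2 peak, where 90.3% of all replicate 1 peaks did. In replicate 2, 296 of 383 (77.3%, exact 95% binomial interval 72.8 to 81.4, which covers counting error only) overlapped a replicate 1 peak, where 55.5% of all its peaks did. The flanks had 88.6% and 33.0%, and those outside the Cwc22 block had 92.6% and 52.5%. Since shared peaks chose the runs, nothing is read from these shares. With at least 75 bp of overlap the replicate 2 share was 57.4%, and 148 of the 293 paired replicate 1 peaks (50.5%) had their centre within 20 bp of a partner centre, against 74.9% over all chromosomes. Paired peaks thus lay within 20 bp less often in the runs than over all chromosomes, though both had a median offset of 20 bp. Peaks crowd in the runs, so an overlap of 1 bp can pair different sites there, and its part was not tested. Across the 273 shared run peaks the values of the libraries had a Spearman correlation of 0.96, beside 0.94 over all 117590, with points that share their library and often their hotspot. By run it went from 0.50 over 32 peaks in run A to 0.99 over 20 peaks in the Zc3h12a run. Peaks without a partner were weaker than those with one: median percentiles were 32.2 and 68.7 in replicate 1, and 63.1 and 82.0 in replicate 2. Over all chromosomes, peaks without a partner had medians of 18.9 in replicate 1 and 27.0 in replicate 2.

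Dense runs were not all made of strong peaks. The median percentile of run peaks was 63.2 in replicate 1 and 80.2 in replicate 2, but single runs went from 11.5 and 30.0 at Ywhab to 89.3 and 94.7 in run B of the Cwc22 block. Without the 3 block runs the median was 45.6 in replicate 1, below the middle of the list, and 66.9 in replicate 2, above it. The plot of percentiles places the runs in 3 bands: the Cwc22 block high, Ywhab and Mdh1 low, and the remaining runs between and widely spread.

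**Figure D2:**
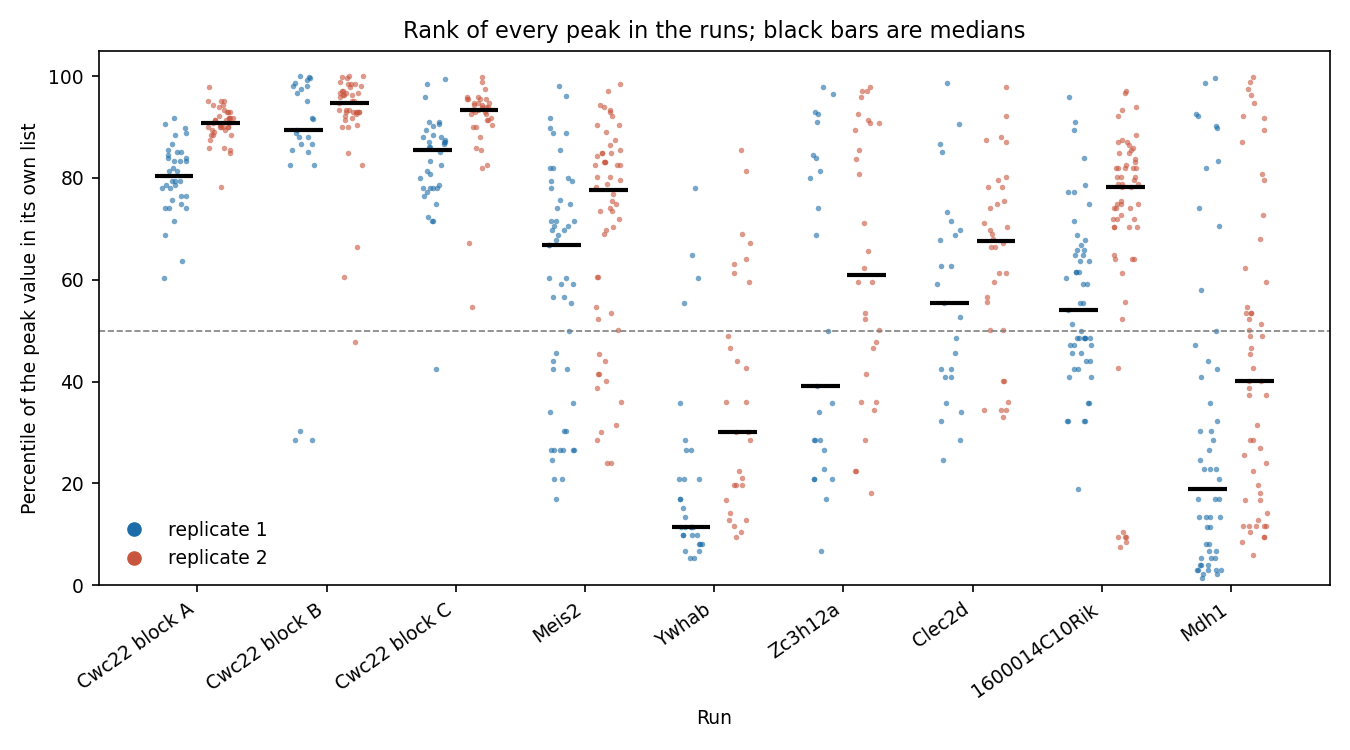
Percentile of every run peak within the peak list of its own library (y axis) by run (x axis), blue for replicate 1 and red for replicate 2, with medians as black bars and the middle of the list dashed. The Cwc22 block medians lie between 80.4 and 94.7, while those of Ywhab (11.5 and 30.0) and Mdh1 (18.9 and 40.1) lie below 50 in both libraries.

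Whether run peaks were stronger than the peaks around them varied by run and by library. The median of replicate 1 was above that of the run's own flanks in 3 of 9 runs (run C, Meis2 and 1600014C10Rik). In replicate 2 it was above in 5 of 9, below in 3 and equal in run B. The flank medians rest on 2 to 25 peaks per run in replicate 1 and 11 to 108 in replicate 2. Flanks of the block runs also overlap in part. At Ywhab the run stood at 11.5 and its 19 flank peaks at 54.1 in replicate 1, and at 30.0 and 67.3 in replicate 2.

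The block around Cwc22 on chromosome 2 holds 3 of the runs and most of the strong run peaks. Cwc22 encodes a splicing factor that helps load the exon junction complex. This stretch of chromosome 2 is known for a duplicated segment whose number of copies differs between mouse strains. Copies in these cells were not measured here, and their part in the values was not tested. Run A (chr2:77870156-77890765) covers the 3' 9.61 kb of the 65.2 kb gene, which lies on the minus strand, and the noncoding gene Gm13727. Runs B (77973236-77994285) and C (78004296-78027085) overlap no annotated gene, with the Cwc22 start site 26.9 and 57.9 kb away on the low side and that of Ube2e3 874 and 841 kb away on the high side.

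Run A was uniformly strong without being extreme. Its 36 replicate 1 peaks had values from 53 to 98 with a median of 75.5, and its 40 replicate 2 peaks had 102 to 142 with a median of 125. All 36 and all 40 lay above the middle of their lists, and 2 of 36 and 22 of 40 lay in the top 10%. The strongest shared peak, the one printed above, begins at the run's low edge and stood at the percentiles 91.9 and 97.8. Run B reached higher, with values up to 145 and 150, and 12 of 25 replicate 1 peaks and 36 of 43 replicate 2 peaks in the top 10%. Run C had 36 peaks in each library, with medians of 84 and 131, and 35 of the 36 replicate 1 peaks above the middle of the list.

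Between the block's runs the libraries parted. The 82.47 kb between runs A and B held 29 peaks in replicate 1, or 3.52 per 10 kb, and 143 in replicate 2, or 17.3 per 10 kb. Hotspots covered 13.3% of that stretch in replicate 1 and 81.4% in replicate 2. The highest value the authors' hotspot lists hold is a −log10 q of 100. It was reached by 12 of the 21 hotspots that overlap the stretch in replicate 1 and by 43 of 43 in replicate 2. Over all hotspots the shares were 46.7% and 48.5%. Some of the counted hotspots reach into the runs. Between runs B and C there was 1 peak in replicate 1 and there were 7 in replicate 2. The few replicate 1 peaks between A and B were strong, with a median percentile of 98.2, higher than in any of the runs. Over the whole 156.93 kb, replicate 1 had 127 peaks and replicate 2 had 269.

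Outside the block the libraries were alike again. The 50 kb before run A held 4 and 6 peaks and the 50 kb after run C held 3 and 3. In replicate 2 the dense stretch therefore reached from the start of run A to the end of run C. It had thinner parts near 80 to 100 kb and in run C. Replicate 1 reached such density only within the 3 runs, and not throughout them. The 10 kb that begin 110 kb past the block start, inside run B, held 3 replicate 1 peaks, with hotspots over 13.6%. Run A ends where the next shared peak lies 15.17 kb on and the next replicate 1 peak 14.85 kb on. Between runs B and C the nearest shared peaks lie 10.01 kb apart, just past the joining distance. Replicate 1 alone would have joined B and C, since it has a peak 0.09 kb past run B, with no replicate 2 partner, that lies 9.77 kb from run C. The Cwc22 gene itself was under hotspots for 27.8% of its length in replicate 1 and 96.1% in replicate 2.

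**Figure D3:**
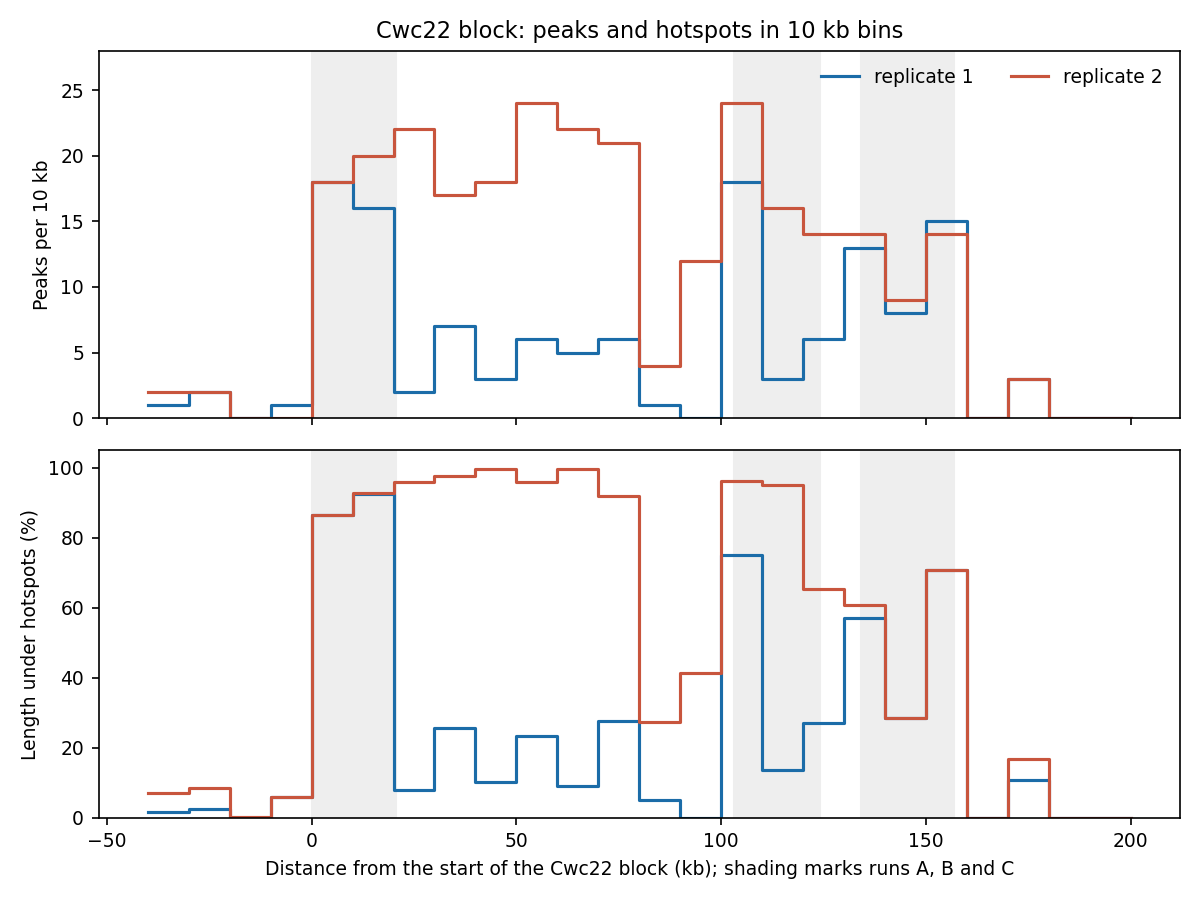
Peaks per 10 kb (top) and percent of length under hotspots (bottom) in 10 kb bins along the Cwc22 block, with distance in kb from its start on the x axis, blue for replicate 1, red for replicate 2 and the 3 runs shaded. Between runs A and B replicate 2 stays at 17 to 24 peaks per bin for most of the way, where replicate 1 has 2 to 7, and both fall to 0 to 3 beyond the block.

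The bare parts inside the block's runs were of different kinds. The longest part of run C under no hotspot, 7.13 kb at chr2:78012713-78019841, had the same ends in both libraries. Of its bases 99.8% were repeat-masked in the reference, and 1.80% of its 31-base words occurred only once in the genome. A gap of 1.26 kb in run A was likewise the same in both, 95.7% masked and 5.69% found once. The 4.80 kb gap of replicate 1 in run B, chr2:77986260-77991062, was unlike these: 94.7% of its words occurred once and 25.3% of its bases were masked. Replicate 2 had 8 peaks there and hotspots over 98.6% of it.

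Mdh1, the cytosolic malate dehydrogenase that moves reducing equivalents in the malate-aspartate shuttle, lay for 98.2% of its 15.6 kb in a run of 29.25 kb (chr11:21542836-21572085). The run, which also holds the microRNA gene Gm22990, was crowded with weak sites. Its 54 replicate 1 peaks had values from 15 to 130 with a median of 27, and 11 of them lay above the middle of the list. The 55 replicate 2 peaks had 35 to 149 with a median of 61, and 22 were above the middle. The strongest, chr11:21571916-21572085 at 192 bp inside the gene from a start site, had values of 130 and 149. A second strong peak, the printed intronic one at 10.7 kb from the start, had 122 and 145. The flanks held 2 shared peaks in 100 kb. The run had 18.5 replicate 1 peaks per 10 kb beside 0.20 in its flanks, and 18.8 replicate 2 peaks beside 1.40. The next coding start, that of Wdpcp, lay 0.15 kb beyond the high edge, where the strongest peak ends. That peak is thus within 1000 bp of start sites of both genes.

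Ywhab encodes the beta isoform of the 14-3-3 adaptor proteins, which bind phosphorylated partners. Its run is the shortest and the densest of the 9, with 16.2 shared peaks per 10 kb over 13.59 kb (chr2:164008756-164022345). It covers the last 9.83 kb of the 23.6 kb gene and ends 3.11 kb before the start of Pabpc1l, while the Ywhab start site lies 13.8 kb before the run. Values were 19 to 72 with a median of 23 over 31 replicate 1 peaks, and 39 to 114 with a median of 54 over 29 replicate 2 peaks. In replicate 1, 4 of 31 were above the middle of the list and none reached the top 10%. In replicate 2 those counts were 8 of 29 and none. The strongest site, printed above, is intronic. Hotspots covered 66.0% of the run in replicate 1 and 92.8% in replicate 2, with 2 of 25 and 5 of 11 at the highest value.

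The Meis2 run (chr2:116045216-116076205) covers the start of Meis2, a homeodomain transcription factor that works with Hox and Pbx proteins in development. It holds 20.6 of the gene's 202.8 kb together with the noncoding genes 2700033N17Rik and 2810405F15Rik and part of G630016G05Rik, which runs away from Meis2 on the opposite strand. Values were 26 to 119 in replicate 1 (median 59, 53 peaks) and 50 to 144 in replicate 2 (median 101, 56 peaks). The strongest site, at -1.44 kb from the nearest Meis2 start site, had 119 and 144. The 5 promoter sites of this run had median percentiles of 82.0 and 89.0, and the other 36 had 68.3 and 78.6.

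Zc3h12a, the ribonuclease Regnase-1 that destroys mRNAs of inflammatory genes, lies wholly in a run of 17.93 kb (chr4:125114756-125132685). Its 25 replicate 1 peaks had values from 20 to 118 with a median of 38, and its 30 replicate 2 peaks had 46 to 142 with a median of 79.5. The peaks fell into weak and strong groups, 5 of 25 and 8 of 30 being in the top 10%. The strongest, chr4:125116256-125116425, lies past the gene's 3' end at 11.5 kb from the start site, with values of 118 and 142.

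Clec2d encodes a C-type lectin that is a ligand of inhibitory receptors on natural killer cells. The gene lies wholly in a run of 17.65 kb (chr6:129171776-129189425) with the small RNA genes Gm26160 and Gm27514. Values were 30 to 122 in replicate 1 (median 49, 25 peaks) and 56 to 142 in replicate 2 (median 87.5, 34 peaks). The strongest peak, chr6:129180496-129180645, spans the start site with 122 and 142. This run was the least covered, with hotspots over 41.3% and 53.2% of its length and a bare stretch of 5.40 kb in replicate 1 and 4.46 kb in replicate 2 on its low side.

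The run at 1600014C10Rik (chr7:38167716-38201205) is the longest, at 33.49 kb. It contains this coding gene, the antisense gene D530033B14Rik over most of it and the small nuclear RNA gene Gm22203. Its values were 27 to 110 in replicate 1 (median 48, 53 peaks) and 37 to 140 in replicate 2 (median 102, 60 peaks), the median percentiles being 54.1 and 78.3. The gene was under hotspots for 83.0% of its length in replicate 1 and 98.8% in replicate 2. The strongest peak, chr7:38187936-38188105, is intronic in both genes, with 110 and 140. Strand cannot be read from these data, so a site in both genes belongs to neither in particular.

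Promoters made up a small part of the run sites. Of the 273 shared run peaks 21 (7.69%, exact 95% binomial interval 4.82 to 11.5) had their centre within 1000 bp of a protein-coding start site, beside 18.7% of all shared peaks. Exons held 26 (9.52%, beside 5.46% of all shared peaks), introns 103 (37.7%, beside 42.3%) and intergenic sequence 123 (45.1%, beside 33.5%). Of the intergenic sites, 14 lay in run A, 22 in run B and 29 in run C of the Cwc22 block. With a window of 2500 bp the promoter share was 13.9%. In all 5 runs with promoter sites these had a higher median percentile than the run's other sites in both libraries, in replicate 1 from 69.7 against 52.7 at Clec2d to 99.6 for the 1 site at Mdh1 against 22.8. The median over the 21 was 82.0 in replicate 1 and 88.5 in replicate 2, beside 78.0 and 87.5 for all 21972 promoter sites. The 123 intergenic run sites had 78.0 and 89.5, above the promoter sites in replicate 2, and the Cwc22 block runs, which hold no promoter site, had 91.1, 96.5 and 93.9 in that library. Coding start sites lay in 4 runs, of Meis2, Zc3h12a, Clec2d and 1600014C10Rik. The promoter site of the Mdh1 run, near the starts of both Mdh1 and Wdpcp, lay at the very edge of its run.

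The edges of the runs follow from their selection in shared peaks. Within 5 kb inside the 18 edges lay 125 shared peaks and within 5 kb outside lay 0, which follows from joining peaks up to 10 kb apart. Replicate 1 had 150 peaks inside and 6 outside, with none outside at 12 edges, and nothing is read from this, since 90.3% of all its peaks have a replicate 2 partner. Replicate 2 had 164 and 43, with none outside at 7 edges, and 23 of the 43 lay at the 4 inner edges of the Cwc22 block and 20 at the other 14. Each of the 6 runs outside the block had replicate 2 peaks within 5 kb of at least 1 edge, with 7 on the high side of Mdh1 and 5 on the low side of Ywhab.

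Hotspots in the runs had median widths of 332 bp in replicate 1 and 449 bp in replicate 2, beside 330.5 and 394.5 bp in the flanks and 276 and 272 bp over all chromosomes. Without the block, the medians in runs and flanks were 307 and 313 bp in replicate 1, and 424 and 351 bp in replicate 2. In replicate 1, 77 of 187 run hotspots (41.2%) were at the highest value, beside 46.7% of all and 52.9% of 104 flank hotspots. In replicate 2 it was 99 of 144 (68.8%), beside 48.5% of all and 66.1% of 174 flank hotspots. Without the block the run shares were 32.7% and 61.5%, beside 51.4% and 52.2% in the flanks. Hotspots of at least 1000 bp made up 20.3% and 35.4% of run hotspots, against 11.5% and 24.7% of flank hotspots and 6.42% and 7.87% over all chromosomes. Without the block they made up 16.0% and 30.8% in the runs, against 6.76% and 13.0% in the flanks. The widest, of 6.90 kb, lay in run C in both libraries.

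The base composition of the runs was close to that of their flanks. GC content was 43.8% in the runs, 43.1% in the flanks and 41.7% over all chromosomes, and it was above the run's own flanks in 5 of 9 runs. CG dinucleotides numbered 12.1 per kb in the runs and 9.66 in the flanks. The Meis2 run had 21.6 per kb and its flanks 7.94, while run B had 6.08 and 9.80. Repeat-masked bases made up 27.1% of the runs and 35.4% of the flanks, but the share was above the flanks in 3 runs. Words of 31 bases found once in the genome made up 89.7% of the runs and 84.8% of the flanks, from 66.1% in run C to 98.0% at Mdh1. The runs are thus mostly sequence that occurs once in the reference.

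Where hotspots of both libraries stopped, repeats were more common. Bases under hotspots of both were 19.8% masked, with 96.9% of words found once, and bases under neither were 53.9% masked, with 62.1% found once. Words found once were fewer under no hotspot in 9 of 9 runs, and masked bases more common in 8 of 9, Ywhab being the exception (16.0% against 17.1%). In the 3 block runs the bases under no hotspot were 97.3% to 100% masked. At Mdh1 95.3% of the words under no hotspot occurred once, so its uncovered bases were not of that kind. How the authors treated reads that match several places was not stated. The part of read placement in these gaps was not tested.

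**Figure D4:**
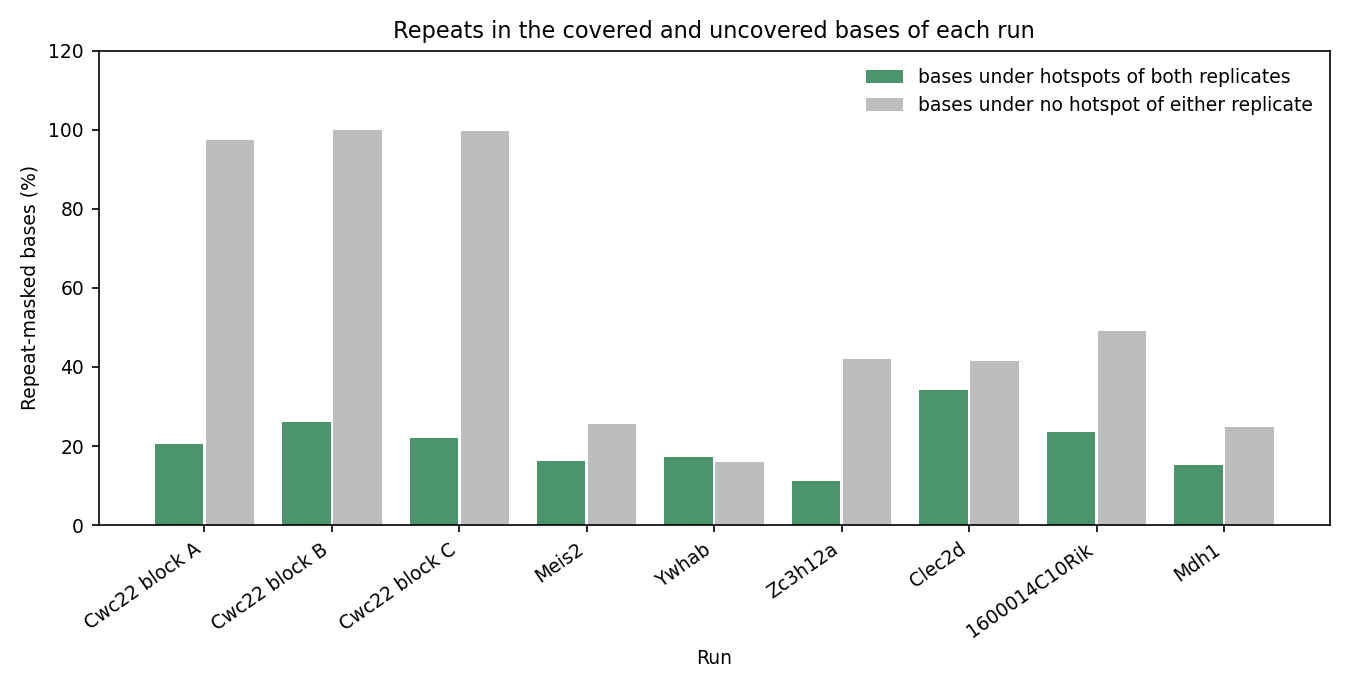
Share of repeat-masked bases (y axis, percent) under hotspots of both replicates (green) and under no hotspot of either (grey) in each run (x axis). The grey bars reach 97.3 to 100% in the 3 Cwc22 block runs and 16.0 to 49.2% in the others, and only at Ywhab is the grey bar the lower.

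Motifs of adipocyte and general factors were searched on both strands of the central 150 bp of each shared peak. The C/EBP motif TTGCNNAA occurred in 29 of 273 run sites (10.6%, exact 95% binomial interval 7.23 to 14.9), beside 11.9% of all shared peaks and 15 of 91 flank sites (16.5%, interval 9.53 to 25.7). It was found in 6 of 42 sites at Mdh1, 5 of 22 at Ywhab, 5 of 22 at Clec2d and 0 of 20 at Zc3h12a. The AP-1 motif TGANTCA occurred in 22 (8.06%, beside 8.94% of all and 5.49% of flank sites) and the ETS motif CCGGAAG in 3 (1.10%, beside 2.32% and 3.30%). The NF-I motif, TTGGC and GCCAA with 5 bases between, occurred in 0 of 273, beside 0.0910% of all and 0 of 91 in the flanks. The motif of CTCF, a factor that marks the bases of chromatin loops, was found in 1 run site (0.366%, interval 0.00927 to 2.02), beside 4.88% of all shared peaks and 3.30% of the 91 flank sites. None of these motifs contains another, and a match does not show that the factor was bound.

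The PPAR-RXR motif, AGGNCA repeated with 1 base between, is the site of the main adipocyte regulator and its partner. It occurred in 1 run site (0.366%, beside 0.543% of all shared peaks and 2 of 91 flank sites, 2.20%). That site and the single CTCF match are shown because each is the only one of its kind in the runs, and they were chosen after their values were seen. Capitals mark the match, on the plus strand of GRCm38. The PPAR-RXR match at chr2:77979945-77979957 lies in an intergenic peak of run B with values of 86 and 135. The CTCF match at chr4:125132584-125132595 lies in the last peak of the Zc3h12a run, at its high edge, with values of 61 and 92.

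Cwc22 block B, chr2:77979826-77979975: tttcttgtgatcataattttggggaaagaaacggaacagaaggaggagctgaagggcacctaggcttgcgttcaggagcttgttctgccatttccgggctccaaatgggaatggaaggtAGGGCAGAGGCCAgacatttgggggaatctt

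Zc3h12a, chr4:125132536-125132685: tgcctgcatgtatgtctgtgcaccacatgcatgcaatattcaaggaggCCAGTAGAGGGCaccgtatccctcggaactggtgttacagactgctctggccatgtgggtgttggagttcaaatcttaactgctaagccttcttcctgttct

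Among all clusters the runs sit at the dense end by their selection. There were 84 clusters of at least 20 shared peaks, and by density the 9 runs take ranks 2, 3, 5 and 7 to 12, the others above them being 3 stretches of chromosome 10. Those 3 had median percentiles of 99.2 in replicate 1, where the 9 runs had 11.5 to 89.3. Just inside the threshold of 10 per 10 kb stood run B with 10.5. Just outside were clusters at Zfhx4 with 9.73, Zeb2 with 9.72 and Plin1, the lipid droplet coat protein, with 9.12. The Plin1 cluster had median percentiles of 48.5 and 61.4 over 29 and 39 peaks, within the range of the runs.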

How the data were processed

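DNase-seq peaks and hotspots of 2 libraries were used as deposited, on mm10 per the labels. Peaks and hotspots were called in each library separately, since each deposited list belongs to 1 library. The aligner, caller and depth were not stated in those sources. Each peak of 150 bp carries a signal from 1 to 150 in the authors' lists, a whole number on a scale without a stated definition. Each hotspot carries a −log10 q value of at most 100, as deposited.

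The members and lists were chosen with earlier results of these data known. Named genes were all annotated genes that overlap a run and, in each run, the shared peak with the highest replicate 1 value. Duplicate lines (20 and 33, with 0 in the runs) were counted once, and scaffolds were left out. Sequence and repeat masking came from GRCm38, genes from GENCODE M21. A peak within 1000 bp of a coding start site was a promoter peak, and otherwise exonic, intronic or intergenic. Words of 31 bases were counted over the genome with both strands as 1. No test was made between groups, as there is 1 group. Intervals are exact 95% binomial ones over peaks, which are not replicates. Python 3.11.15, numpy 2.4.6, pandas 2.3.3, SciPy 1.17.1 and numba 0.67.0 were used, and the counting was tested on simulated data.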

Additional observations from a re-analysis of the deposited data

Results flagged for a closer look

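Dense runs also appeared in data the comparisons left out. On 2 unplaced scaffolds of mm10, which were not assigned to a chromosome, shared peaks met the same density threshold: 31 peaks at 13.4 per 10 kb on chrUn_GL456392 and 20 peaks at 13.0 per 10 kb on chrUn_GL456396. No control library was analysed here.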

How the results depend on the processing

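Of 45 alternatives over 10 results, 25 were labelled within the spread of the value and 20 as moving it. For some results the spread was the standard deviation of the 2 single-library values, and for the others an exact binomial counting interval. For the median percentile the replicate 2 list had to be labelled as moved, since 2 values always differ by more than their standard deviation. Intervals over bases treat each base as independent, so small shifts in GC, masked or word shares were labelled as moved. Nothing is read from these label counts. The alternative of replicate 2 without the Cwc22 block was chosen after seeing the data and gave a density ratio of 9.24. Against 11.5, the ratio was 18.0 with flanks of 25 kb, 4.43 with hotspots, and 5.25 to 12.3 with 1 replicate left out. Run length under peaks of both (14.8%) was 9.49% in the stronger 50%, and 23.8 to 27.0% with 1 replicate. The replicate 2 partner share (77.3%) was 57.4% at 75 bp of overlap and 63.4% in the stronger 50%. The median percentile of replicate 1 (63.2) was 45.6 without the block, and the replicate 2 list gave 80.2 with the block included. Length under hotspots (64.4%) was 80.4% for either replicate, 51.7% for hotspots at the ceiling, and 65.9 to 78.9% with 1 replicate. GC content (43.8%) was 44.9% in unmasked bases and 45.1% without the block, where masked bases (27.1%) came to 23.8% and words found once (89.7%) to 93.1%, with 83.5% for words of 21 bases. C/EBP matches (10.6%) were 1.83% for 3 exact sequences, and promoter sites (7.69%) 13.9% with a window of 2500 bp. The cause of these shifts was not tested beyond what each setting leaves out. No paired analysis was possible because there is 1 group. Depth was unknown, which limits what an absent peak in either library shows.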
